A study of Mus musculus with 9 samples.

Results

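The family of miR-103 and miR-107 comprised 2 of the 817 mature miRNAs counted in the small RNA sequencing (sRNA-seq) libraries, mmu-miR-103-3p and mmu-miR-107-3p, which were selected by name. Their levels, the reads that fit both of them and their reads with 1, 2 or 3 Ts added at the 3′ end were compared between 5 Tut4/7 CTL and 4 Tut4/7 cKO libraries. In Tut4/7 cKO cells, reads of miR-103-3p with added Ts fell from 8.85% to 0.313% of its pooled reads, while the level of miR-103-3p differed by less than the spread between libraries. The miR-107-3p row held few reads, and up to 77.4% of them in a library fit miR-103-3p equally well.

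MiRNAs are short RNAs that guide Argonaute proteins to target mRNAs, mainly through pairing of the seed near the 5′ end of the miRNA. MiR-103 and miR-107 are made from hairpins in introns of the pantothenate kinase genes, which encode the enzymes of the first step of coenzyme A synthesis, and are known for repression of Dicer and for roles in insulin sensitivity. TUT4 and TUT7 are terminal uridylyltransferases, which add uridines to RNA 3′ ends. In sequenced libraries an added uridine is read as a T.

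The cells were Meis1/Hoxa9 preleukemic cells, made on the C57BL/6 background from c-Kit-enriched fetal liver cells by transduction with retroviruses that encode both transcription factors. Both groups carried the floxed Tut4 and Tut7 alleles, Meis1 and Hoxa9, and were grown with Stem Cell Factor, IL-6 and IL-3. Per the study's methods, the colony medium used during transformation also held granulocyte-macrophage colony-stimulating factor. Tut4/7 cKO cells also carried Vav-iCre, a recombinase transgene active in hematopoietic cells, and Tut4/7 CTL cells, called WT in the labels, came from littermates without it. The study's methods describe replicates as coming from separate animals or embryos, and the labels give a replicate number only. Tut4 and Tut7 mRNA were not analysed here.

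The mature sequences, from the RefSeq miRNA table of build GRCm38.p6, are shown first to mark what the members share, with the seed (bases 2 to 8) in capitals.
mmu-miR-103-3p: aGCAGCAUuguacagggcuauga
mmu-miR-107-3p: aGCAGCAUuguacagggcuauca

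Both are 23 bases long, have the same seed and differ at 1 base, G22C, counted from the 5′ end and written from miR-103-3p to miR-107-3p. The same sequences are repeated with that base in capitals, because it decides which reads can be told apart.
mmu-miR-103-3p: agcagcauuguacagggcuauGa
mmu-miR-107-3p: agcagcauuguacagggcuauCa

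In GRCm39, miR-103-3p is encoded at chr11:35673274-35673296 on the plus strand (Mir103-1, within Pank3) and at chr2:131130023-131130045 on the plus strand (Mir103-2, within Pank2). MiR-107-3p is encoded at chr19:34798100-34798122 on the minus strand (Mir107, within Pank1). Each locus lies in an intron on the strand of its host gene, as no protein-coding transcript had an exon there. The genome is printed below on the strand of the miRNA, with the 3 bases after the mature end in capitals, since a genomic T there could be read as an added one.
Mir103-1: agcagcattgtacagggctatgaAGG
Mir103-2: agcagcattgtacagggctatgaAAG
Mir107: agcagcattgtacagggctatcaAAG

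An A follows the mature sequence at all 3 loci, so a T at this place was not encoded at any of them.

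Libraries held 175462 to 479342 miRNA reads. Of the marker miRNAs of blood cells, 5 of 5 were listed, with a summed level of 43633 to 71807 CPM (counts of a miRNA scaled to library size) in Tut4/7 CTL and 47218 to 74937 CPM in Tut4/7 cKO libraries. Most of this sum was miR-181a-5p, at means of 44952.5 CPM in Tut4/7 CTL and 55450 CPM in Tut4/7 cKO. MiR-142a-3p (99.7 and 91.1 CPM) and miR-142a-5p (5.64 and 8.93 CPM) were below the hepatocyte marker miR-122-5p (938.1 and 995.5 CPM). The 3 hepatocyte markers summed to 565.0 to 1350 CPM and 833.1 to 1638 CPM, the 2 of 3 erythroid markers listed to 22.6 to 154.1 CPM and 6.85 to 102.4 CPM, and miR-126a-3p of endothelium and stem cells ranged from 116.1 to 188.2 CPM and from 72.9 to 248.8 CPM, in the same order of groups. Muscle and neuron markers stayed at or below 7.52 CPM in each sum, with miR-133a-3p, miR-206-3p and miR-124-3p not listed. The hepatocyte sums were carried by miR-122-5p. MiR-194-5p was at 33.0 CPM ± 9.42 (SD, n = 5) and 83.6 CPM ± 19.3 (SD, n = 4), with a log2 fold change of 1.34 that did not pass in edgeR (adjusted p = 0.0873). DESeq2 called 1 of the 3 hepatocyte markers, miR-194-5p. Over all 203 miRNAs with a DESeq2 result for level, 5 were called lower and 6 higher. The part of liver RNA in the results was not tested. Over all miRNAs, 10.8% to 24.8% of the reads of a Tut4/7 CTL library and 7.55% to 19.3% of those of a Tut4/7 cKO library were uridylated, that is, ended in Ts past the mature 3′ end. These shares can include encoded Ts, as only 66 of the 143 miRNAs tested for uridylation had no T next in a RefSeq hairpin. Tut4/7 CTL replicate 2, at 10.8%, was the lowest control.

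The reads were first divided by whether they reached base 22, the base that tells the members apart. The 2 rows held 28 distinct read sequences, of which 10 fit both members. No read of a member fit another mature miRNA of the RefSeq table, and no read listed with another miRNA fit a member. The reads that matter for this division are printed as they were sequenced, with no capitals.
Bases 1 to 19, either member: agcagcattgtacagggct
Bases 1 to 20, either member: agcagcattgtacagggcta
Bases 1 to 21, either member: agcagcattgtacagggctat
Bases 1 to 22, miR-103-3p: agcagcattgtacagggctatg
Bases 1 to 22, miR-107-3p: agcagcattgtacagggctatc

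Within a library, each of these sequences was listed with 1 miRNA only, so the whole count went to 1 row. The read of bases 1 to 21, the most frequent of the shared ones with 478 reads, was listed with miR-103-3p in 6 libraries and with miR-107-3p in 3, which were Tut4/7 CTL replicate 3 and Tut4/7 cKO replicates 2 and 3. The read of bases 1 to 19 (138 reads) was listed with miR-103-3p in 4 libraries and with miR-107-3p in 5, as was that of bases 1 to 20 (44 reads). The row that received a shared read thus changed from library to library within each genotype.

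Reads that fit both members made up 8.55%, 6.84%, 3.86%, 6.71% and 3.31% of the reads of both rows in Tut4/7 CTL replicates 1 to 5, and 7.01%, 6.46%, 5.78% and 13.8% in Tut4/7 cKO replicates 1 to 4. The groups overlapped, and Tut4/7 cKO replicate 4 was the highest. Tut4/7 CTL libraries averaged 5.86% ± 2.20 (SD, n = 5) and Tut4/7 cKO libraries 8.25% ± 3.71 (SD, n = 4), a difference of 2.40 percentage points that was within the spread between libraries (exact permutation test, two-sided, p = 0.317, adjusted over 5 tests of single values p = 0.397). Without Tut4/7 cKO replicate 4 the difference was 0.561 percentage points.

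The shared reads were a small part of the miR-103-3p row but a large and variable part of the miR-107-3p row. MiR-107-3p was listed with 44, 9, 65, 22 and 20 reads in Tut4/7 CTL replicates 1 to 5, of which 41, 9, 32, 22 and 13 fit miR-107-3p only. In Tut4/7 cKO replicates 1 to 4 it was listed with 13, 100, 116 and 93 reads, of which 12, 39, 35 and 21 fit miR-107-3p only. The shared part reached 50.8% in Tut4/7 CTL replicate 3, and 61.0%, 69.8% and 77.4% in Tut4/7 cKO replicates 2 to 4, against 7.69% in Tut4/7 cKO replicate 1. In the miR-103-3p row it ranged from 0.346% to 8.65% in Tut4/7 CTL and from 0.735% to 10.1% in Tut4/7 cKO.

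**Figure D1:**
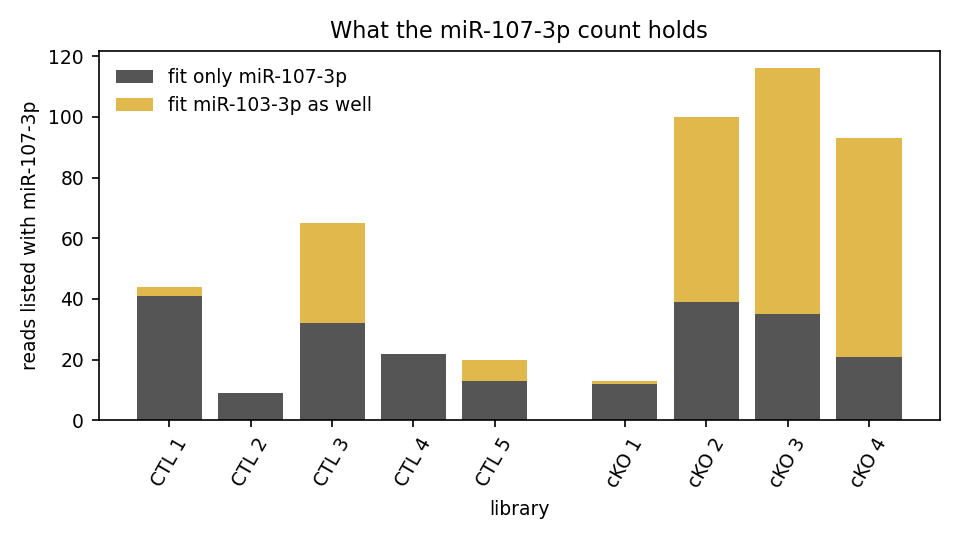
Reads listed with miR-107-3p in each library (y axis, read counts), split into reads that fit only miR-107-3p (grey) and reads that also fit miR-103-3p (yellow). The grey part lies between 9 and 41 reads in Tut4/7 CTL and between 12 and 39 in Tut4/7 cKO, while most of the height of Tut4/7 cKO replicates 2 to 4 is yellow.

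Levels were compared as CPM scaled by TMM factors, with edgeR's quasi-likelihood test over 205 miRNAs, those that reached 10 reads in 4 or more libraries. Past an adjusted p of 0.05, 1 of these was lower (0.488%) and 0 were higher (0%) in Tut4/7 cKO. At an unadjusted p under 0.05 there were 13 lower and 18 higher, and DESeq2 called 5 lower and 6 higher.

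MiR-103-3p was at 3252, 4098, 2550, 3353 and 2988 CPM in Tut4/7 CTL replicates 1 to 5, and at 2834, 2589, 3447 and 4004 CPM in Tut4/7 cKO replicates 1 to 4. The groups overlapped. Fewer cells that express a miRNA and less of it per cell cannot be told apart in these bulk libraries. The means were 3248 CPM ± 567.7 (SD, n = 5) and 3218 CPM ± 635.8 (SD, n = 4), and the log2 fold change of Tut4/7 cKO over Tut4/7 CTL was -0.01 (SE 0.27, adjusted p = 0.982, edgeR). Its sign changed with other size factors (0.04) and with DESeq2 (0.05), both far inside the SE. MiR-103-3p ranked 42nd of the 817 miRNAs by mean CPM in Tut4/7 CTL, between mmu-miR-296-3p (3265 CPM ± 1108, SD, n = 5) and mmu-miR-361-3p (3158 CPM ± 507.5, SD, n = 5), neither of which differed from it beyond the spread. In Tut4/7 cKO it ranked 43rd, between mmu-miR-139-5p (3587 CPM ± 2570, SD, n = 4) and mmu-miR-146b-5p (2965 CPM ± 1698, SD, n = 4).

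MiR-107-3p, as listed, was at 196.5, 33.9, 191.2, 76.8 and 75.2 CPM in Tut4/7 CTL replicates 1 to 5, and at 88.8, 271.7, 264.8 and 233.9 CPM in Tut4/7 cKO replicates 1 to 4. Tut4/7 cKO replicates 2 to 4 lay above all control libraries and replicate 1 lay within their range. The log2 fold change was 0.92 (SE 0.52, adjusted p = 0.415, edgeR), which did not pass the test. When only reads that fit miR-107-3p alone were counted, the libraries held 183.1, 33.9, 94.1, 76.8 and 48.9 CPM against 81.9, 106.0, 79.9 and 52.8 CPM. All Tut4/7 cKO libraries then lay inside the range of the controls, and the log2 fold change was -0.12 (SE 0.48, adjusted p = 0.924). MiR-103-3p was little affected by this choice, at -0.01 (SE 0.26, adjusted p = 0.994). Counted as listed, miR-107-3p ranked 144th in Tut4/7 CTL (114.7 CPM ± 74.3, SD, n = 5), between mmu-miR-3473e (115.7 CPM ± 134.9) and mmu-miR-130b-3p (107.6 CPM ± 18.6). Its mean in Tut4/7 cKO (214.8 CPM ± 85.6, SD, n = 4) lay between those of mmu-miR-574-3p (218.1 CPM ± 45.3) and mmu-miR-505-5p (213.4 CPM ± 121.0). These neighbours also overlapped it.

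**Figure D2:**
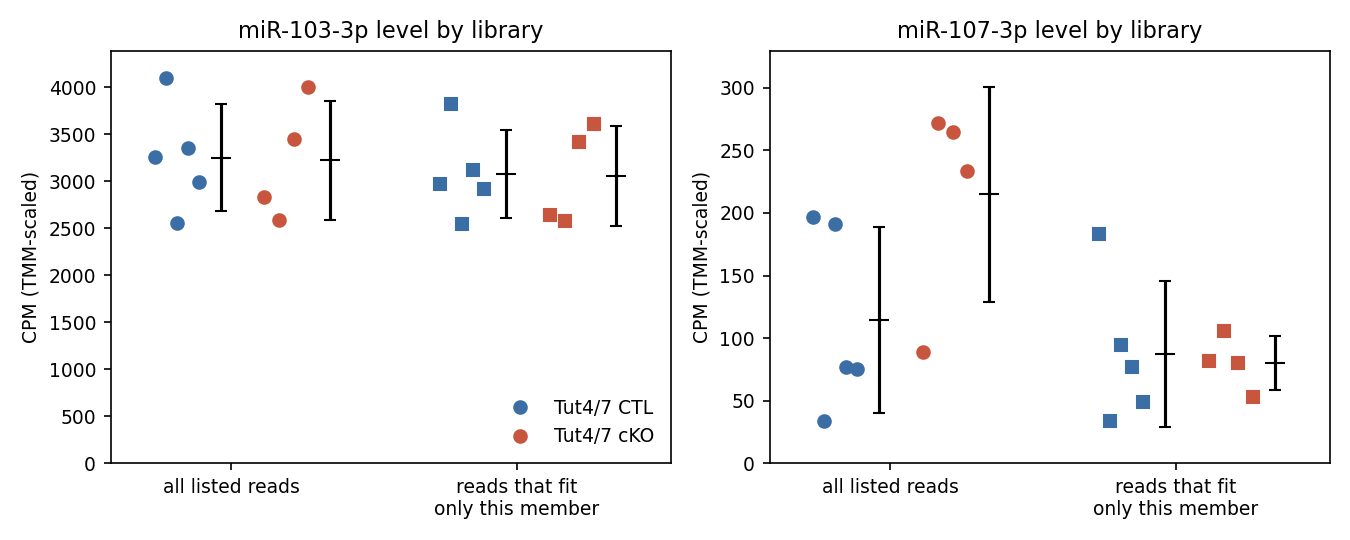
Level of each member in each library (points) with mean ± SD (black bars), in CPM scaled by TMM factors, for all listed reads and for reads that fit only that member; Tut4/7 CTL (n = 5) is blue and Tut4/7 cKO (n = 4) is red. MiR-103-3p overlaps between genotypes on both counts, and the 3 Tut4/7 cKO libraries that lie above the controls for miR-107-3p lie within the control range once shared reads are left out.

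With each distinct read sequence of both members counted once, in a single row, the family was at 2741 to 4132 CPM in Tut4/7 CTL and 2861 to 4238 CPM in Tut4/7 cKO, with a log2 fold change of 0.03 (SE 0.26, adjusted p = 0.961). The miR-107-3p share of the reads that fit only 1 member was 5.81%, 0.881%, 3.57%, 2.40% and 1.65% in Tut4/7 CTL replicates 1 to 5, and 3.02%, 3.96%, 2.28% and 1.45% in Tut4/7 cKO replicates 1 to 4. The means were 2.86% ± 1.92 (SD, n = 5) and 2.68% ± 1.07 (SD, n = 4), and the difference of -0.19 percentage points was within the spread (exact permutation test, two-sided, p = 0.921, adjusted p = 0.921). Over all listed reads the difference had the opposite sign, 2.66 percentage points (exact permutation p = 0.175).

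For uridylation, edgeR compared reads that carry added Ts with reads that do not, as an odds within each library. Of 143 miRNAs tested, 85 were lower (59.4%) and 0 were higher (0%) in Tut4/7 cKO at an adjusted p under 0.05, and 0 were higher at an unadjusted p under 0.05 or with DESeq2. The fall of miR-103-3p was therefore shared by most miRNAs tested. The median log2 change of the odds over the tested miRNAs was -2.84. A miRNA entered this fit, and the fits by tail length below, only with such reads in at least 3 of the control libraries, which favours a fall. With reads from any 3 libraries allowed, 85 of 151 were lower (56.3%) and 0 higher (0%).

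MiR-103-3p had 74 of 728, 13 of 1088, 63 of 867, 111 of 961 and 132 of 795 reads uridylated in Tut4/7 CTL replicates 1 to 5, which are 10.2%, 1.19%, 7.27%, 11.6% and 16.6%. In Tut4/7 cKO replicates 1 to 4 the counts were 0 of 415, 4 of 953, 5 of 1510 and 5 of 1592, which are 0%, 0.420%, 0.331% and 0.314%. Every control library lay above every Tut4/7 cKO library, and Tut4/7 CTL replicate 2 was the control nearest to them. The 95% Wilson interval of that library, 0.700% to 2.03%, overlapped those of all 4 Tut4/7 cKO libraries, whose upper limits ran from 0.733% to 1.07%. The 0 reads of Tut4/7 cKO replicate 1 allow a share of up to 0.723% by counting error alone. In that library 19.3% of all miRNA reads ended in Ts past the mature end, which can include encoded Ts.

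The uridylated share of miR-103-3p averaged 9.36% ± 5.68 (SD, n = 5) over Tut4/7 CTL libraries and 0.266% ± 0.183 (SD, n = 4) over Tut4/7 cKO libraries. The log2 change of the odds was -4.79 (SE 0.81, adjusted p = 0.000117, edgeR), and this fall passed the threshold in all 16 alternatives, in which the log2 change ranged from -5.28 to -4.40 and the adjusted p from 4.96e-19 to 0.0074. Without Tut4/7 CTL replicate 2 the control mean was 11.4% ± 3.90 (SD, n = 4). Among the 143 miRNAs, miR-103-3p was 58th by mean control share, and 22nd of the 66 that are not followed by a T in a RefSeq hairpin.

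The tails were then separated by length. Reads of miR-103-3p from its first base with 1, 2 and 3 added Ts are printed with the added Ts in capitals.
1 added T: agcagcattgtacagggctatgaT
2 added Ts: agcagcattgtacagggctatgaTT
3 added Ts: agcagcattgtacagggctatgaTTT

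With exactly 1 added T, miR-103-3p had 32, 7, 35, 55 and 70 reads in Tut4/7 CTL replicates 1 to 5 (4.40%, 0.643%, 4.04%, 5.72% and 8.81%) and 0, 2, 4 and 4 in Tut4/7 cKO replicates 1 to 4 (0%, 0.210%, 0.265% and 0.251%). The groups did not overlap. In the fit for 1 added T, 81 of 139 miRNAs were lower (58.3%) and 0 higher (0%) in Tut4/7 cKO, and miR-103-3p fell by 4.30 on the log2 scale of the odds (SE 0.79, adjusted p = 0.000299, edgeR). Without regard to genotype at entry, 80 of 149 were lower (53.7%) and 0 higher (0%).

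With exactly 2 added Ts, miR-103-3p had 41, 6, 27, 55 and 60 reads in Tut4/7 CTL replicates 1 to 5 (5.63%, 0.551%, 3.11%, 5.72% and 7.55%) and 0, 2, 1 and 1 in Tut4/7 cKO replicates 1 to 4 (0%, 0.210%, 0.0662% and 0.0628%). The groups again did not overlap. In the fit for 2 added Ts, 43 of 60 miRNAs were lower (71.7%) and 0 higher (0%), and miR-103-3p fell by 5.35 on the log2 scale (SE 1.06, adjusted p = 2.84e-06, edgeR). With the entry rule blind to genotype, 42 of 66 were lower (63.6%) and 0 higher (0%). Both tail lengths kept this call for miR-103-3p under that rule, with member-specific reads, with each library left out and with a replicate block. Whether they changed to a different extent was not tested.

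With 3 added Ts, the longest tail that the reference could show, miR-103-3p had 1, 0, 1, 1 and 2 reads in Tut4/7 CTL replicates 1 to 5 and 0 in each Tut4/7 cKO library. Pooled, these were 5 of 4439 control reads (0.113%, Wilson interval 0.0481% to 0.263%) against 0 of 4470, which allows up to 0.0671%. The control share was 1.68-fold this floor of 3 counts over the Tut4/7 cKO group. The control interval reached below the floor, so no minimum fold is given. In the fit for 3 added Ts, 29 of 33 miRNAs were lower (87.9%) and 0 higher (0%), and miR-103-3p passed narrowly (adjusted p = 0.0452, edgeR). The entry rule blind to genotype gave 27 of 35 lower (77.1%) and 0 higher (0%), and ended the call for miR-103-3p (adjusted p = 0.052). Omission of any library other than Tut4/7 CTL replicate 2 ended it too, with adjusted p from 0.0588 to 0.105 (edgeR). Without Tut4/7 cKO replicate 4 the control share was 1.08-fold the floor.

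**Figure D3:**
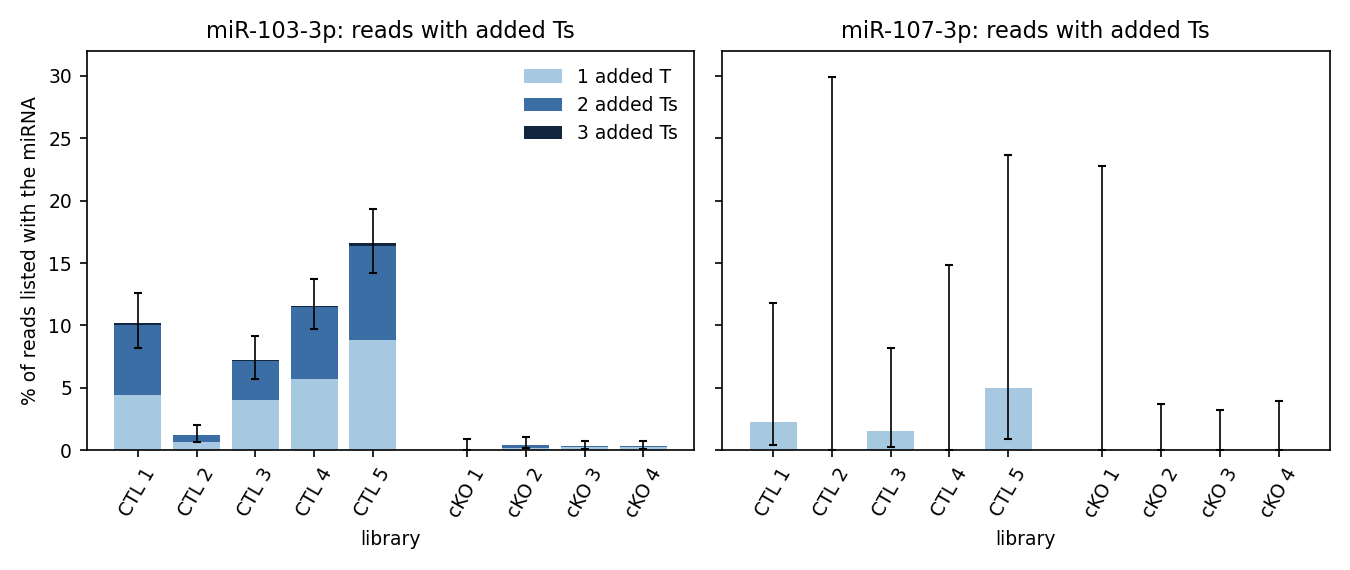
Share of the reads listed with each member that carried 1, 2 or 3 added Ts (stacked bars, percent of reads) in each library, with the 95% Wilson interval of the total (black lines). MiR-103-3p totals run from 1.19% to 16.6% in Tut4/7 CTL and from 0% to 0.420% in Tut4/7 cKO; miR-107-3p bars stand for 1 read each, and its intervals reach up to 29.9%.

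Reads with 2 Ts were nearly as frequent as reads with 1 T on miR-103-3p. Tails of 2 or 3 Ts made up 56.8%, 46.2%, 44.4%, 50.5% and 47.0% of its uridylated reads in Tut4/7 CTL replicates 1 to 5. The value of replicate 2, where few reads were uridylated, is 6 of 13 reads. It is too coarse to tell whether the share was like that of replicate 5, where 132 reads were uridylated. Of the 4, 5 and 5 uridylated reads in Tut4/7 cKO replicates 2 to 4, 2, 1 and 1 had 2 Ts. Pooled over the controls, 49.4% of 393 uridylated reads had 2 or 3 Ts. This was the highest of the 42 miRNAs with at least 20 uridylated control reads and no T next in a RefSeq hairpin, whose median was 5.38% and whose next value was 39.4%. This ranking was chosen after the values were seen and is a description, with no test.

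MiR-107-3p had 1 uridylated read in each of Tut4/7 CTL replicates 1, 3 and 5 and 0 in the other 6 libraries. These 3 reads carried 1 T each, printed in capitals.
1 added T: agcagcattgtacagggctatcaT

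Of the listed reads, 3 of 160 were uridylated in Tut4/7 CTL (1.88%, 95% Wilson interval 0.640% to 5.37%) and 0 of 322 in Tut4/7 cKO, which allows up to 0.932%. Of the reads that fit miR-107-3p only, 3 of 117 were uridylated (2.56%, interval 0.876% to 7.27%) in Tut4/7 CTL, against 0 reads in Tut4/7 cKO, which allow up to 2.80%. With both groups at or under 3 counts no fold is given. The fit over all miRNAs put miR-107-3p past the threshold as listed (adjusted p = 0.0384 for uridylated reads and 0.0382 for reads with 1 T, edgeR), with 3 reads behind it. With member-specific reads it did not pass (adjusted p = 0.120 and 0.118), nor for uridylated reads with DESeq2 (0.0868) or without any one of Tut4/7 CTL replicates 1, 3 and 5 and Tut4/7 cKO replicates 2, 3 and 4 (0.0663 to 0.0861). Shared reads enter this share only as non-uridylated reads, and 215 of the 322 Tut4/7 cKO reads were shared against 43 of the 160 control reads. The call for miR-107-3p thus rested on 3 reads and depended on which row received the shared reads, with adjusted p between 0.00492 and 0.257 over 14 alternatives.

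The members were compared within each library on reads that fit only 1 of them. In Tut4/7 CTL replicates 1 to 5 the uridylated share of miR-103-3p exceeded that of miR-107-3p by 8.69, 1.28, 4.17, 12.4 and 9.34 percentage points. The mean difference was 7.18 percentage points ± 4.42 (SD, n = 5), positive in 5 of 5 libraries, with p = 0.0625 in an exact paired permutation test (two-sided, adjusted p = 0.156), the smallest that 5 libraries allow. In replicates 2 and 4, however, miR-107-3p had 0 uridylated reads of 9 and of 22. These allow up to 33.3% and 13.6%, above the miR-103-3p shares of 1.28% and 12.4%. In replicates 1, 3 and 5 miR-107-3p had 1 uridylated read of 41, of 32 and of 13. The Wilson intervals, 0.432% to 12.6%, 0.554% to 15.7% and 1.37% to 33.3%, held the miR-103-3p shares of 11.1%, 7.29% and 17.0%. Counting error thus left the sign undetermined within each control library. The differences in Tut4/7 cKO, 0, 0.423, 0.334 and 0.349 percentage points, are the miR-103-3p shares themselves, since miR-107-3p had 0 uridylated reads in each library, which allow up to 7.69% or more. They could not have been negative and are not read as a comparison. The gap between the members in log2 odds averaged 0.80 ± 1.74 (SD, n = 5) over the controls and -2.72 ± 1.56 (SD, n = 4) over Tut4/7 cKO libraries, a difference of -3.52 (exact permutation test, two-sided, p = 0.0476, adjusted p = 0.156). The gap was negative in Tut4/7 CTL replicate 2, at -1.96, and positive in the other 4 control libraries. In Tut4/7 CTL replicates 2 and 4 miR-107-3p had 0 uridylated reads, so these gaps rest on the 0.5 added to each count. The difference in shares of replicate 2, 1.28 percentage points, had the opposite sign. The difference of -3.52 and its p are therefore not read as a change in uridylation. In Tut4/7 cKO miR-107-3p had no uridylated read, so its odds there rest on the 0.5 added to each count and on the number of reads, and the gap does not measure uridylation of miR-107-3p in these cells.

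The members also differed in where their reads ended. Of the reads that fit only miR-103-3p, 48.4%, 41.7%, 53.4%, 56.4% and 64.0% reached base 23, with or without added Ts, in Tut4/7 CTL replicates 1 to 5, and 49.0%, 54.8%, 56.9% and 34.6% in Tut4/7 cKO replicates 1 to 4. For miR-107-3p these were 9.76%, 33.3%, 21.9%, 18.2% and 15.4%, and 33.3%, 25.6%, 8.57% and 0%. They rest on 4 of 41, 3 of 9, 7 of 32, 4 of 22 and 2 of 13 reads, and on 4 of 12, 10 of 39, 3 of 35 and 0 of 21. Counting error is thus large in each library. In all 9 libraries fewer reads of miR-107-3p than of miR-103-3p reached base 23, by 8.33 to 48.6 percentage points. This pattern was seen in the data and was not tested. Over the controls, miR-107-3p had 97 reads ending at base 22 and 17 at base 23, against 2006 and 1813 for miR-103-3p. A miR-107-3p read that ends at base 22 differs from a miR-103-3p read in its last base only, and a substitution at that base cannot be told apart from the other member.

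In the deposited reads, Ts followed base 23 in every uridylated read of the members. With reads that reached base 23 as the base, the uridylated share of miR-103-3p was 17.8% (393 of 2206) in pooled Tut4/7 CTL and 0.682% (14 of 2054) in Tut4/7 cKO. That of miR-107-3p was 15.0% (3 of 20, 95% Wilson interval 5.24% to 36.0%) and 0 of 17, which allows up to 17.6%. On this base the mean gap between the members in Tut4/7 CTL was -0.19 percentage points ± 16.2 (SD, n = 5), where it had been 7.18 over all member-specific reads. With 2 to 7 miR-107-3p reads per control library on this base, the gap was negative in 3 libraries and positive in 2, and its direction could not be read.

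Reads of both members together ended at base 22 in 45.3% ± 7.21 (SD, n = 5) of Tut4/7 CTL and 47.4% ± 6.80 (SD, n = 4) of Tut4/7 cKO reads, and at base 23 without added Ts in 39.7% ± 4.90 and 44.1% ± 10.4. Ends at base 21 made up 4.08% ± 1.39 and 5.84% ± 2.21, and ends at base 19 made up 1.15% ± 0.669 and 1.45% ± 1.39. All 4 overlapped between genotypes. Both members hold a T at bases 19 and 21, so a read that ends there cannot be told apart from a shorter read with 1 added T. Reads that start after the first base made up 0.841% ± 0.556 of the miR-103-3p reads of control libraries and 0.568% ± 0.253 of those of Tut4/7 cKO libraries.

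**Figure D4:**
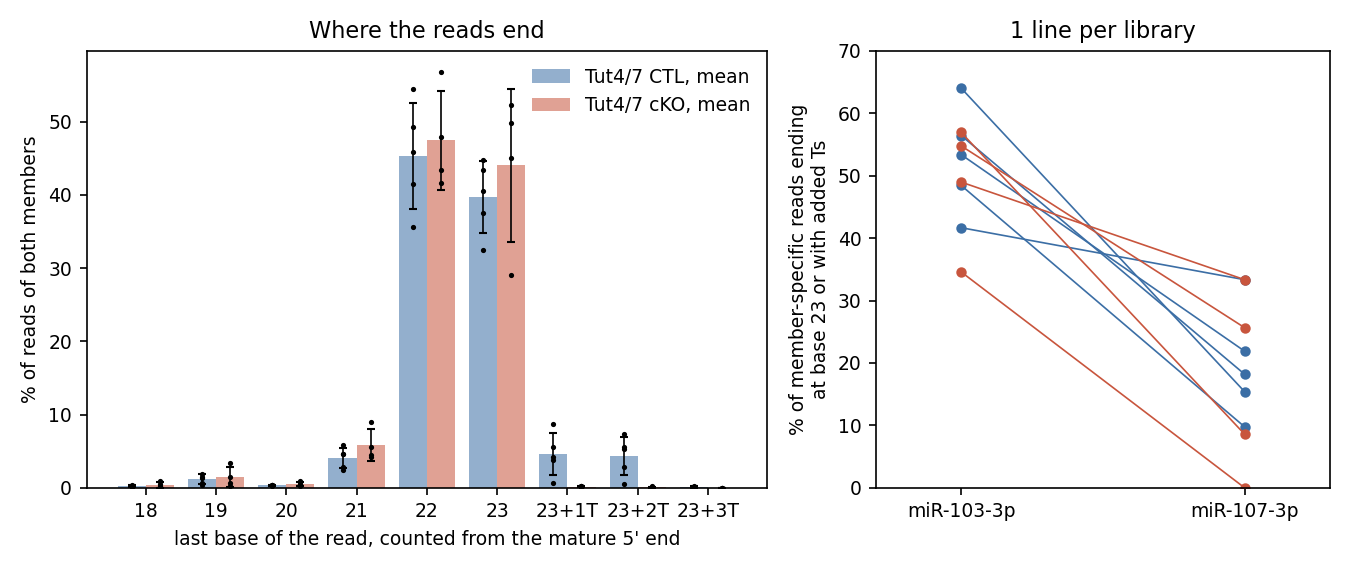
Left, share of the reads of both members that end at each base (mean ± SD, dots are libraries; 23+1T means base 23 and 1 added T) in Tut4/7 CTL (blue, n = 5) and Tut4/7 cKO (red, n = 4). Right, share of the reads that fit only 1 member that reached base 23, 1 line per library; the dots of the genotypes do not overlap at base 23 with 1 or 2 added Ts on the left, and every line falls from miR-103-3p to miR-107-3p on the right.

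Reads that ended before base 23 were tested against all other reads in the same way. Of 190 miRNAs, 9 had a higher share of such reads (4.74%) and 0 a lower one (0%) in Tut4/7 cKO, with 31 higher and 2 lower at an unadjusted p under 0.05 (edgeR). MiR-103-3p did not pass, with a log2 change of 0.20 (SE 0.37, adjusted p = 0.849), which was -0.11 without Tut4/7 cKO replicate 4, the library with most short reads. MiR-107-3p did not pass either, at 1.35 (SE 0.92, adjusted p = 0.474) as listed and 0.21 (SE 0.75, adjusted p = 0.954) on its own reads.

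The 5p miRNAs of the 3 hairpins were not listed. The wider group of miR-15 and miR-107 shares the 6 bases AGCAGC, which start at base 1 of miR-103-3p and miR-107-3p and at base 2 of miR-15b-5p and miR-16-5p, shown with these bases in capitals. The seeds, bases 2 to 8, therefore differ (GCAGCAU in the members, AGCAGCA in miR-16-5p).
mmu-miR-103-3p: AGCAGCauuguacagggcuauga
mmu-miR-15b-5p: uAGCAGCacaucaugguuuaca
mmu-miR-16-5p: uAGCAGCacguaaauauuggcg

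Of the 8 other miRNAs on the list of this group, 6 were listed and 3 entered the tests, miR-15b-5p, miR-16-5p and miR-503-5p. In edgeR, 0 of 3 passed for uridylation and 0 of 3 for level, with 0 at an unadjusted p under 0.05 and 0 with DESeq2 in each, against the 59.4% of tested miRNAs that were lower in uridylation. MiR-16-5p, known for repression of cell cycle genes, was uridylated in 16.7% ± 2.59 (SD, n = 5) of Tut4/7 CTL and 12.4% ± 2.74 (SD, n = 4) of Tut4/7 cKO reads (log2 change of the odds -0.56, adjusted p = 0.248). MiR-15b-5p was at 0.527% ± 0.235 and 0.241% ± 0.243 (adjusted p = 0.217), and miR-503-5p at 1.96% ± 2.03 and 0% in all 4 libraries (adjusted p = 0.0952). A U follows each of these 3 miRNAs in its RefSeq hairpin, so their Ts may be encoded, which differs from miR-103-3p. Whether this bears on their shares in Tut4/7 cKO was not tested.

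In every library, 63 other miRNAs had 100 or more reads. Among them, the uridylated share that followed the mean of both members most closely over the 9 libraries was that of mmu-miR-361-3p (Pearson r = 0.993), then mmu-miR-27b-3p (r = 0.989) and mmu-miR-27a-3p (r = 0.982). These correlations include the difference between genotypes, and the 9 points share library and depth. MiR-27b-3p, with a log2 change of the odds of -4.78 (SE 0.82, adjusted p = 0.000128, edgeR), was uridylated in 9.41% ± 5.39 (SD, n = 5) of Tut4/7 CTL and 0.427% ± 0.343 (SD, n = 4) of Tut4/7 cKO reads, and in 1.11% of the reads of Tut4/7 CTL replicate 2. MiR-27b-3p was picked for its likeness to the members, so its low share in that replicate is no independent observation. MiR-361-3p, which a U follows in its RefSeq hairpin, had 0.719% ± 0.483 and 0.0226% ± 0.0452, and miR-27a-3p had 0.182% ± 0.106 and 0% in all 4 libraries. For level, the log2 CPM of mmu-miR-140-3p (r = 0.848), mmu-miR-501-3p (r = 0.815) and mmu-miR-27a-3p (r = 0.806) was most like that of the members' summed CPM.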

How the data were processed

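Per the labels and the study's methods, the small RNA fraction of total RNA was sequenced, and the authors removed adapters (cutadapt 5.0) and mapped reads with Bowtie 1.3.1 without mismatches to mature miRNAs followed by 3 Ts. The authors deposited counts of each miRNA and of each distinct read sequence, not normalized. The genome build behind the annotation is not given in the sources used here. Their uridylated mark, given to reads with an end beyond the mature one, was checked with 0 differences. Counts per miRNA equaled the summed read sequences, with 0 differences, and 0 columns were left unmatched.

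Levels were tested with edgeR 4.0.16 (TMM, glmQLFit, glmQLFTest, genotype only) in R 4.3.3. Uridylation, tail lengths and short reads were tested on read classes with a term per library, in miRNAs that reached 10 reads in 5 libraries or more and, for uridylation, had a uridylated read in 3 or more of the Tut4/7 CTL libraries. P values were adjusted by Benjamini-Hochberg over all tested miRNAs. Single values were compared by exact permutation in SciPy 1.17.1. Scripts were tested on simulated data. Intervals and floors of 3 counts cover counting error only, since reads carry no molecular identifiers. Alternatives were DESeq2 1.42.0, other size factors, filters and coverage minimums, a quasi-binomial model, member-specific reads, a replicate block and omission of each library. Of the 817 miRNAs, 707 were found by name in the RefSeq table. Named miRNAs were the members, their hairpin partners, the miR-15/107 group with the 3 most read, markers, neighbours in level and the 3 most alike in level and in uridylation. The members and lists were chosen with earlier results of these data known. Replicates of a group differed beyond sampling noise in every pair.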

Additional observations from a re-analysis of the deposited data

Results flagged for a closer look

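The share of member reads that fit both members was 13.8% in Tut4/7 cKO replicate 4, far from the 5.78% to 7.01% of the other 3 Tut4/7 cKO libraries. Its distance to the nearest of them was 0.846 of the range of the group, above the limit for 4 samples. In all, 45 groups of values of the members were examined and 1 held such a library, while chance flags about 1 in 20. In the same library 34.6% of the reads that fit only miR-103-3p reached base 23, the lowest of the 9 libraries, and 9.02% of the reads of both members ended at base 21, the highest. The cause was not tested.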

How the results depend on the processing

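The fall of uridylated miR-103-3p reads, and of those with 1 and with 2 Ts, kept its direction and its call in every alternative run, and no alternative called a change in level of either member. Signs of values that never passed turned: miR-103-3p level was 0.044 with other size factors, 0.045 with DESeq2 and -0.229 to 0.078 without a library, miR-107-3p level -0.12 with member-specific reads, and the change of short miR-103-3p reads -0.11 to 0.40 without a library. The miR-107-3p share of assignable reads differed by 2.66 percentage points with listed reads, 0.146 with reads ending at base 23 and -0.68 to 0.55 without a library. The gap between the members in Tut4/7 CTL was -0.19 on reads reaching base 23, an alternative chosen after seeing the data.

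For miR-107-3p, the adjusted p of uridylated reads and of reads with 1 T was 0.120 and 0.118 with member-specific reads, 0.0868 with DESeq2 (uridylated reads), and 0.0212 to 0.0861 and 0.0179 to 0.0876 without a library. That of miR-103-3p with 3 Ts was 0.0191 to 0.105 without a library and 0.052 with an entry rule blind to genotype, chosen after seeing the data. The difference in log2 odds gap was -2.54 (exact permutation p = 0.111) with listed reads and -4.21 to -2.78 without a library. Counts of miRNAs past the threshold were 11 with DESeq2, 18 without a filter and 0 to 2 without a library for level (1 before), 48 at a coverage of 200 reads for uridylation (85 before, fewer tested), 9 to 31 for 3 Ts (29 before) and 2 to 11 for short reads (9 before) without a library. MiR-107-3p could not be tested at that coverage or on reads reaching base 23.

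Deviations from the group means correlated at -0.12, -0.27, 0.36 and 0.15 between same-numbered libraries of the genotypes. Differently numbered libraries were not compared in this way, so a pairing by replicate number was neither shown nor excluded. With a replicate block on 8 libraries the adjusted p of miR-107-3p was 0.257 for uridylated reads and 0.259 for 1 T, that of miR-103-3p with 3 Ts 0.0711, and counts were 0 for level, 12 for 3 Ts and 3 for short reads; without the block, on the same 8 libraries, miR-107-3p had 0.0861 for uridylated reads. Depth limits what can be said of miR-107-3p, at 9 to 41 reads of its own per library.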
